A study of Homo sapiens with 50 samples.

Results

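The genes described here encode the RAD9-RAD1-HUS1 clamp and the ATR-CHEK1 checkpoint pathway that the clamp activates: *RAD9A*, *RAD9B*, *RAD1*, *HUS1*, *RAD17*, *ATR*, *ATRIP*, *TOPBP1*, *CHEK1* and *CLSPN*. All probes that carry these gene names on the array were taken, 14 of the 34127 probes and 10 of the 25940 gene names. Transcripts were measured on 50 one-colour arrays, 5 for each of 10 groups, in H1299, an established human non-small cell lung carcinoma line with normal RAD9, and in H1299*shRAD9*, the same line infected with the pSUPER.retro.puro vector that expresses a short hairpin RNA against RAD9. All RNA was taken 4 hours after exposure. CTL cells were sham irradiated (0 Gy) and the other dishes received 1 Gy of α particles (4He ions, 125 keV per micron). DBP and DBN were cells hit directly, and BP and BN were the bystander cells that shared their dishes and medium but were out of the particles' range. A dish was placed in DBP and BP when its bystander cells formed micronuclei, and in DBN and BN when they did not.

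Several facts limit these groups as a model. The knockdown came from a stable vector, more than 1 clone was used, and which clone gave which sample is not stated in the sources used here. The parental H1299 cells were untransfected, so knockdown and vector cannot be told apart. The responding and nonresponding dishes were sorted by the micronucleus outcome itself. Replicates of a group are described as biological, and the number of arrays limits the precision of every value. Arrays with the same replicate number were treated as pairs, an assumption that the labels do not settle.

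When a replication fork stalls or a break is resected, single-stranded DNA coated with RPA recruits the ATR kinase through its partner ATRIP. RAD17 loads the ring-shaped clamp of RAD9, RAD1 and HUS1 at the junction with double-stranded DNA, and the tail of RAD9 binds TOPBP1, which switches ATR on. Claspin, the product of *CLSPN*, then holds CHEK1 so that ATR can phosphorylate it, and active CHEK1 restrains CDC25 phosphatases and late origins. *RAD9B* is a paralog of *RAD9A* known mainly from testis. The pathway is controlled largely by phosphorylation and protein binding, which these arrays do not measure.

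*CLSPN* is the one member called with irradiation below, and *TOPBP1* is described beside it without a call. Each was read by 1 probe of 60 bases, shown here because every value of these genes rests on it. The *CLSPN* probe lies at chr1:36204117-36204176 on the minus strand and the *TOPBP1* probe at chr3:133329907-133329966 on the minus strand (hg19, the build of the array's annotation). Each probe is given whole, with no part marked.
CLSPN: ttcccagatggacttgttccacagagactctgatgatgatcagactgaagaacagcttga
TOPBP1: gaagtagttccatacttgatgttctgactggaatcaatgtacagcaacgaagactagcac
The *CLSPN* probe has a GC content of 45% and the *TOPBP1* probe of 41.7%. Of the 3 reading frames, 2 ran through the *CLSPN* probe and 1 through the *TOPBP1* probe without a stop codon.

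The promoters of the same genes are shown for a motif they hold. RefSeq windows from 250 bases before to 50 after the start (GRCh38.p14) were held for 9 of the 10 members, 14 windows in all, and were searched on both strands for 4 forms of the E2F motif: TTTCCCGC, TTTCGCGC, TTTGCCGC and TTTGGCGC. E2F proteins are known to drive genes of DNA replication. A match was found in 2 of the 14 windows, those of *CLSPN* and *TOPBP1*, against 3.31% of all 35116 windows. The stretch that holds each match is shown from 100 bases before the start to 5 bases from it, in the direction of transcription, with the match (read on the opposite strand) in capitals. The *CLSPN* stretch is chr1:35769974-35770078 and the *TOPBP1* stretch is chr3:133661937-133662041, both on the minus strand.
CLSPN: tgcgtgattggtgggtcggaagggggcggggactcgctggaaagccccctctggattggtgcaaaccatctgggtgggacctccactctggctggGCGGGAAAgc
TOPBP1: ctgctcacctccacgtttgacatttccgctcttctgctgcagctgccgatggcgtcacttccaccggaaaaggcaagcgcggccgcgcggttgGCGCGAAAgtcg
The *CLSPN* match is TTTCCCGC, a form present in 1.63% of windows, and the *TOPBP1* match is TTTCGCGC, present in 0.515%. These are matches of letters only.

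Values are log2 intensities relative to the median of each array, so that 0 is the median probe, and a difference of 1 is a doubling. Levels of different probes are not comparable, because each probe binds its target with its own strength. A difference was called when limma's p was below 0.005 (unirradiated cell lines and the mean over exposures) or 0.006 (all other comparisons) and its Benjamini-Hochberg adjusted p below 0.1 over the 20100 features that were above background. Of the 14 member probes, 11 probes of 8 genes passed that criterion, and none of these 11 failed it on any of the 50 arrays. Both *RAD9B* probes were well above background on 0 of 50 arrays, with median log2 intensities of 3.42 and 3.55. The single *HUS1* probe was well above background on 15 of 50 arrays, with a median log2 intensity of 4.93 and at most 3 of 5 arrays in a group. *RAD9B* and *HUS1* therefore have no test here, and the third ring subunit cannot be described.

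**Figure D1:**
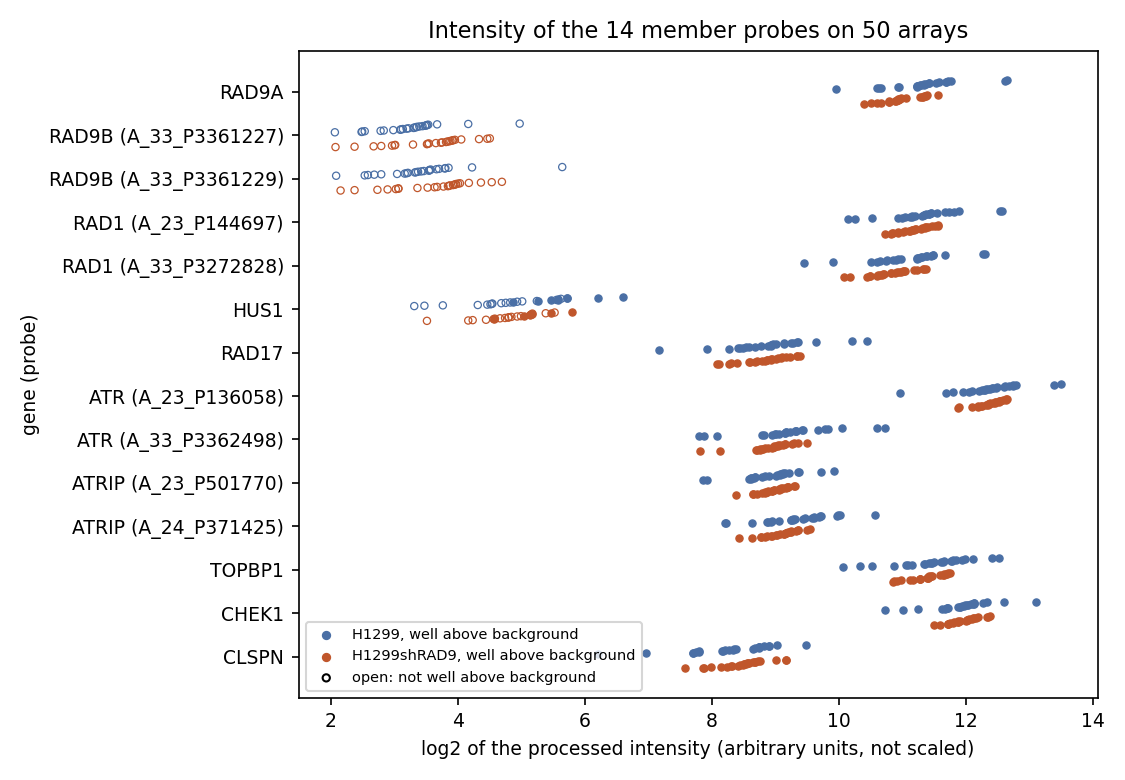
Log2 processed intensity (x axis, not scaled) of each of the 14 member probes (y axis) on the 50 arrays, coloured by cell line, with open points where the scanner software did not mark the probe as well above background. All points of *RAD9B* are open and most of *HUS1* are, while the other 11 probes were well above background on all 50 arrays, with medians from 8.50 (*CLSPN*) to 12.38 (*ATR*).

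The arrays differed in ways that touch these results. The share of spots (controls excluded) well above background ran from 58.2% to 84.16%, the highest being H1299 DBN replicate 1, which also gave several of the lowest member values below. The 50 arrays lay on 13 slides and no slide held CTL arrays of both lines, so slide and cell line largely cannot be told apart. Of the markers listed for this carcinoma line, all probes of the keratins *KRT8* and *KRT18* and of *VIM* were well above background on 50 of 50 arrays, while *EPCAM* was on 5. Of 10 probes for other cell types, the 3 of the endothelial gene *PECAM1* and the 1 of the liver gene *ALB* passed on 0 to 3 arrays. The blood gene *CD3E* passed on 38 arrays, and of 5 *PTPRC* probes 2 passed on 50 arrays and 3 on 0 or 1.

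*RAD9A*, the clamp subunit that the hairpin targets, checks the labels at the level of the transcript only. The authors chose the clones by a strong reduction of RAD9 protein on Western blots, which these arrays do not measure. Its probe A_24_P21715 (chr11:67165480-67165539, plus strand) contains no open reading frame, and where the hairpin's target lies relative to it is not given in the sources used here. In CTL cells the 5 H1299*shRAD9* arrays read 3.85, 3.71, 3.70, 3.34 and 3.64. The 5 H1299 arrays read 4.00, 4.00, 4.18, 3.82 and 4.05. Of the knockdown arrays 4 were below every parental array, and the highest, replicate 1, lay just above the lowest parental one. The means were 3.65 ± 0.19 and 4.01 ± 0.13 (SD, n = 5), so the transcript in unirradiated H1299*shRAD9* was 77.9% of that in H1299. The difference of -0.36 gave p = 0.01587 in a two-sided exact permutation test and 0.07937 adjusted over the 5 exposure groups. Across all features (limma) its p was 0.009783 and its adjusted p 0.05609, which missed the p of 0.005 that the call required. An index of signal from 5′ against 3′ probes of 3470 genes, a sign of RNA quality and labelling, also differed between these groups, at -1.51 in H1299*shRAD9* and -1.41 in H1299 (exact permutation p = 0.0317, and 0.325 to 0.976 in the irradiated groups). Its part in the CTL differences of *RAD9A* and *TOPBP1* was not tested. In bulk RNA fewer cells that express a gene and less of its RNA per cell cannot be told apart, here and in all results below.

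In the irradiated groups no difference between the lines in *RAD9A* passed the exact permutation test at 0.05. In DBP cells the H1299*shRAD9* arrays read 3.70, 4.06, 3.52, 3.88 and 3.81, and the H1299 arrays 4.58, 4.23, 3.71, 4.09 and 4.05. The ranges overlapped, and the knockdown level was 79.0% of the parental one (difference -0.34, exact permutation p = 0.07143, adjusted 0.1786). In BP cells the knockdown arrays read 3.83, 3.82, 3.44, 3.55 and 3.75 and the parental arrays 3.86, 4.01, 3.53, 3.96 and 3.66, or 91.7% (exact permutation p = 0.3175). In BN cells they read 3.98, 3.95, 3.34, 3.47 and 3.70 against 3.70, 4.03, 3.45, 3.97 and 3.83, or 92.6% (exact permutation p = 0.5). Both bystander groups overlapped almost fully between the lines.

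In DBN cells the H1299*shRAD9* arrays read 4.26, 3.77, 3.59, 3.71 and 3.69. The H1299 arrays read 2.90, 4.48, 3.40, 3.86 and 4.10. The parental group was the widest of the 10, with an SD of 0.61. The difference was 0.06 (exact permutation p = 0.873). It was -0.16 without H1299 replicate 1 (exact permutation p = 0.5238), and it was below 0 under 75th percentile scaling, quantile normalization and normexp background correction. Averaged over the 5 exposures of each replicate number, the means were 3.72 ± 0.17 in H1299*shRAD9* and 3.90 ± 0.18 in H1299 (SD, n = 5), a level of 88.5% with an exact permutation p of 0.1429.

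**Figure D2:**
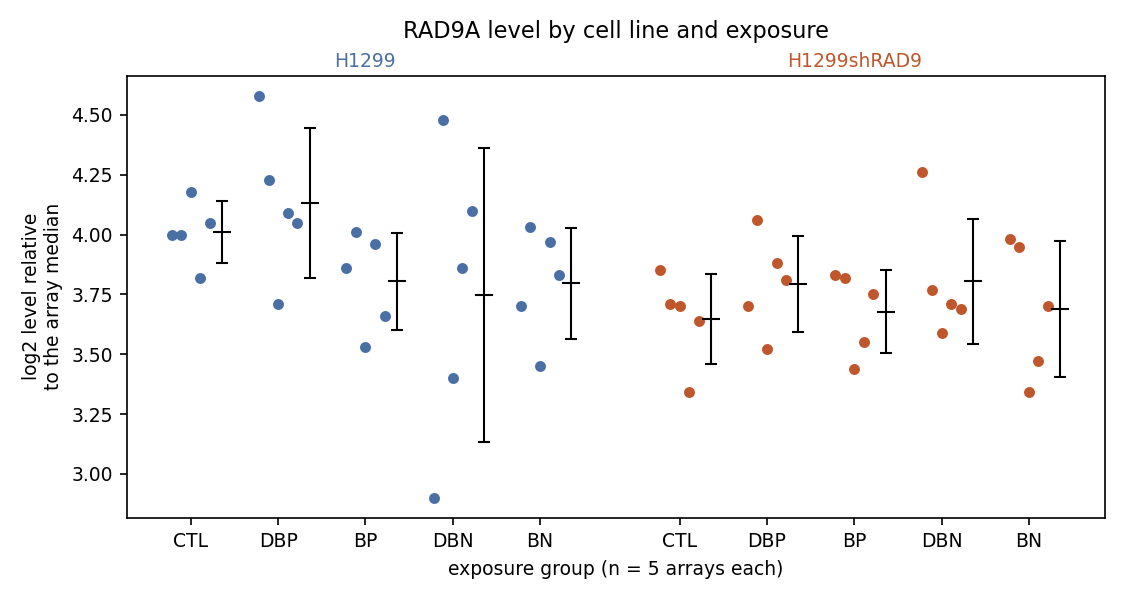
Log2 level of *RAD9A* relative to the array median (y axis) by exposure group and cell line (x axis, n = 5 arrays each), with every array as a point and the mean and SD of each group. The CTL groups of the lines are nearly separate (means 3.65 and 4.01), the bystander groups overlap, and H1299 DBN holds 1 array at 2.90.

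Within either line, irradiation was not followed by a call for *RAD9A*. The changes from CTL in H1299*shRAD9* were 0.14 (DBP), 0.03 (BP), 0.15 (DBN) and 0.04 (BN), with adjusted p from 0.5919 to 0.9541 in limma. In H1299 they were 0.12, -0.21, -0.26 and -0.21, with adjusted p of 0.8479 or more. The difference between the lines in these changes was 0.02, 0.23, 0.42 and 0.25 in the same order, with unadjusted p of 0.1754 or more.

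*CLSPN* was the one member whose change with irradiation was called, and it rose in H1299*shRAD9*. The 5 CTL arrays read 0.87, 0.33, 0.77, 0.83 and 0.97. The 5 BP arrays, bystander cells of responding dishes, read 1.47, 1.06, 1.1, 1.31 and 1.58. The 5 DBN arrays, directly hit cells of nonresponding dishes, read 1.40, 1.21, 1.39, 1.94 and 1.24. Every BP and every DBN array lay above all CTL arrays.

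The rise in BP was 0.55 on the log2 scale (SE 0.09, 95% interval 0.34 to 0.76), or 1.47-fold, with a limma adjusted p of 0.03619, and it was seen in 5 of 5 replicate pairs, at 0.60, 0.73, 0.34, 0.48 and 0.61. Of all features 8.2% were higher in BP in 5 of 5 pairs, and 8.18% in DBN. Of all 20100 features 1.62% were called in that comparison, and 1.49% were called higher, and of the 11 member probes 1 was. The rise in DBN was 0.69 (SE 0.13, interval 0.39 to 0.98), or 1.61-fold, with an adjusted p of 0.06598 and pair differences of 0.54, 0.89, 0.63, 1.11 and 0.26. There 2.8% of features (1.96% higher) and again 1 of 11 member probes were called. With 1 replicate number left out at a time, the BP rise ran from 0.51 to 0.61 and lost its call without replicate 1, 2, 4 or 5, and the DBN rise ran from 0.58 to 0.79 and lost it without replicate 1, 2, 3 or 4. The adjusted p was then between 0.112 and 0.188.

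The other H1299*shRAD9* groups also had mean values above CTL, without a call. The DBP arrays read 1.08, 1.24, 1.29, 1.07 and 1.39, all above the CTL arrays, and the difference of 0.46 (SE 0.12) had a p of 0.003818 but an adjusted p of 0.1451 in limma. Without replicate 1 it was 0.52 and called (adjusted p 0.0979). The BN arrays read 0.73, 1.56, 1.28, 1.70 and 1.14, of which replicate 1 fell among the controls, and the difference of 0.53 (SE 0.19) had an adjusted p of 0.307. Called features made up 1.3% (0.741% higher) in DBP and 0.0299% (0.0249% higher) in BN, with 0 of 11 members in either. At an unadjusted p under 0.05 there were 2, 2, 2 and 3 members in DBP, BP, DBN and BN, against 13.9%, 10.8%, 14.3% and 13.5% of all features. They were *CLSPN* and *TOPBP1* in each group, joined in BN by *ATRIP* A_24_P371425 (0.19, unadjusted p 0.04499 in limma). These 4 comparisons share the same 5 CTL arrays and are not independent of each other. Where groups do not overlap, the count is read against the array as a whole: 0.887% of features had all DBP arrays above all CTL arrays, 1.01% all BP arrays and 1.53% all DBN arrays.

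In H1299 the *CLSPN* arrays were spread far more widely. The CTL arrays read 0.37, 0.70, 1.05, 0.93 and 1.67. The DBP arrays read 0.57, -0.32, 1.05, 1.42 and 1.67, and the BP arrays 1.69, -0.38, 1.03, 1.41 and 1.25. The DBN arrays read -0.13, -0.38, 1.05, 1.1 and 1.17, and the BN arrays 0.16, 1.01, 0.85, 1.19 and 1.21. Every irradiated group spanned most of the control range, and the lowest values came from replicates 1 and 2. In each H1299 group the array with the lowest *CLSPN* value also had the group's lowest index of signal from 5′ against 3′ probes. These arrays were CTL replicate 1 (-1.52), DBP replicate 2 (-1.75), BP replicate 2 (-1.61), DBN replicate 2 (-1.62) and BN replicate 1 (-1.56). The part of the index in this spread was not tested. The changes from CTL were -0.07, 0.06, -0.38 and -0.06 in DBP, BP, DBN and BN, with adjusted p of 0.9435 or more. The median SD of a group was 0.75 in H1299 and 0.25 in H1299*shRAD9*.

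A call in one line and none in the other does not show that the lines differ, so the difference in change was tested. It was largest for DBN, at 1.07 (SE 0.27, interval 0.50 to 1.64), with an unadjusted p of 0.001162 and an adjusted p of 0.1715 in limma, where 0.0149% of features were called. For DBP it was 0.53, for BP 0.50 and for BN 0.59, with adjusted p from 0.6343 to 0.7859. Without replicate 2 the DBP and BP values both fell to 0.17, and with the slide as a fixed block the BN value was 0.028. None of the 11 member probes passed in any of the 4 tests, and 0% of features were called in DBP, BP and BN. The numbers of members at an unadjusted p under 0.05 were 1, 0, 2 and 1 for DBP, BP, DBN and BN. They were *RAD17* in DBP, *CLSPN* and *TOPBP1* in DBN, and *CLSPN* in BN. Of all features 7.75%, 6.51%, 7.03% and 7.3% had such a p. The index of signal from 5′ against 3′ probes was not fitted as a covariate in these 4 tests.

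The level of *CLSPN* itself did not pass between the lines. H1299*shRAD9* minus H1299 was -0.19 without irradiation, 0.33 and 0.88 in the directly hit groups DBP and DBN, and 0.30 and 0.40 in the bystander groups BP and BN. The DBN difference (interval 0.21 to 1.54) had the smallest adjusted p, 0.1729.

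*TOPBP1*, the ATR activator that binds the RAD9 tail, had smaller differences of the same sign, which did not pass the test. In H1299*shRAD9* the CTL arrays read 3.94, 3.85, 3.79, 3.81 and 3.96. The DBP arrays read 3.94, 4.38, 4.26, 4.27 and 4.16, and the BP arrays 4.15, 4.13, 3.94, 4.05 and 4.23. The DBN arrays read 4.19, 3.95, 4.34, 4.19 and 4.44, and the BN arrays 4.05, 4.14, 4.25, 4.28 and 4.01. In DBP, BP and DBN the lowest irradiated array fell within the controls, while all BN arrays lay above them, as did 1.4% of all features. The differences were 0.33, 0.23, 0.35 and 0.28, above 0 in 5 of 5 replicate pairs of each group (the smallest, in DBP replicate 1, rounds to 0.00). Of all features 7.94%, 8.2%, 8.18% and 9.43% were higher in 5 of 5 pairs, in the same order. The 4 *TOPBP1* differences had unadjusted p from 0.006643 (DBN) to 0.02083 (BP) and adjusted p from 0.1436 to 0.3245 in limma. Without replicate 1 the DBP difference was 0.42 and called (adjusted p 0.0804).

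In H1299 the *TOPBP1* arrays read 4.08, 4.08, 4.09, 4.00 and 4.42 in CTL. They read 3.40, 3.58, 4.35, 4.32 and 4.43 in DBP, and 3.17, 4.24, 3.85, 4.02 and 4.36 in DBN. The bystander arrays read 4.24, 3.48, 4.02, 4.28 and 3.88 in BP and 3.80, 4.21, 3.90, 4.41 and 4.22 in BN. Each irradiated group reached both below and near the top of the control range, with changes of -0.12, -0.16, -0.21 and -0.03 in DBP, BP, DBN and BN. The difference between the lines in the change was 0.45, 0.39, 0.56 and 0.31, with unadjusted p from 0.03363 (DBN) to 0.07089 (BN) and adjusted p of 0.6107 or more. Between the unirradiated lines *TOPBP1* was 0.27 lower in H1299*shRAD9* (value -0.27, limma adjusted p 0.09891), but its unadjusted p of 0.02616 was above the 0.005 required.

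**Figure D3:**
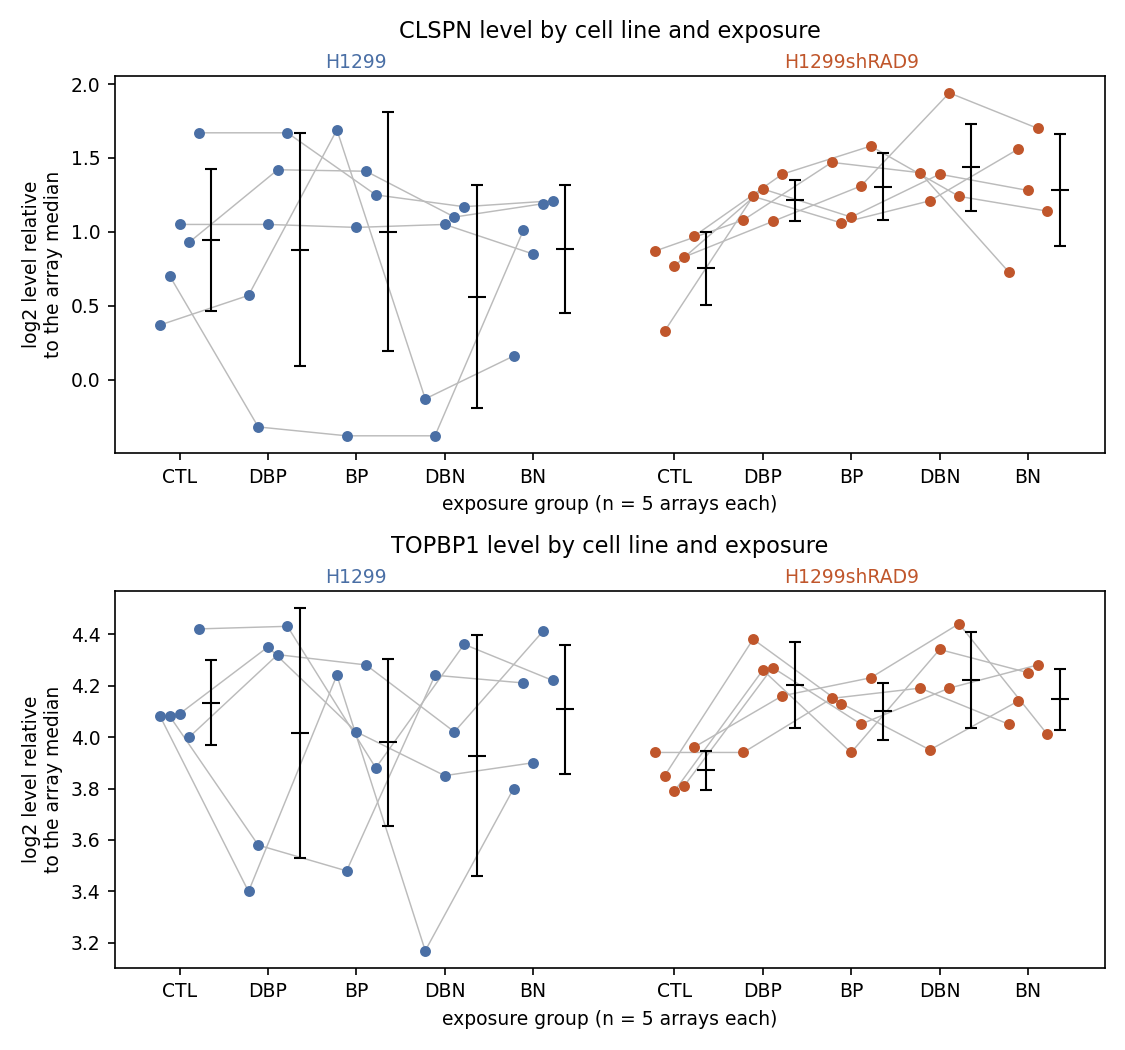
Log2 levels of *CLSPN* and *TOPBP1* relative to the array median (y axes) by exposure group and cell line (x axes, n = 5 arrays each), with every array as a point, grey lines between arrays of the same replicate number, and the mean and SD of each group. In H1299*shRAD9* the *CLSPN* arrays of DBP, BP and DBN all lie above the CTL arrays, whereas in H1299 the groups overlap widely.

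Several values move with these changes. Without the replicate number as a block, the BP rise of *CLSPN* has an adjusted p of 0.495 and the DBN rise one of 0.131. The index of signal from 5′ against 3′ probes averaged -1.51 in CTL arrays of H1299*shRAD9* (range -1.54 to -1.48) and -1.43 to -1.38 in the irradiated groups. All 20 irradiated arrays of that line lay above its 5 CTL arrays. With the index as a covariate the *CLSPN* difference was 0.70 in BP (adjusted p 0.223) and 1.58 in DBN (adjusted p 0.252), and that of *TOPBP1* in DBN turned to -0.18. Since the index and irradiation rise together in this line, their parts cannot be told apart. The uncalled *CLSPN* differences were 0.46 in DBP and 0.36 in BN with the covariate, and that of *TOPBP1* in BN fell from 0.28 to 0.073. With the slide as a fixed block *CLSPN* was at 0.56 in BP (adjusted p 0.582) and 0.81 in DBN (adjusted p 0.294), neither called, and its BN difference fell from 0.53 to 0.15. Within the 3 slides that held both CTL and irradiated arrays of H1299*shRAD9*, 7 of 7 differences were above 0 for *CLSPN* (0.14 to 0.81) and 7 of 7 for *TOPBP1* (0.06 to 0.47). Differences on a slide reuse its control arrays, and on 1 slide a single CTL array serves 3 of the 7. How many of all features had 7 of 7 such differences above 0 was not counted, and these signs carry no test.

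The remaining members had no call. They are the clamp subunit *RAD1*, the loader *RAD17*, the kinase *ATR* and its partner *ATRIP*, and the effector kinase *CHEK1*. Group means spanned 0.21 and 0.23 over the 10 groups for the probes of *RAD1*, 0.38 for *RAD17*, 0.31 and 0.35 for *ATR*, 0.46 and 0.35 for *ATRIP* and 0.42 for *CHEK1*. *CLSPN* spanned 0.88 and *TOPBP1* 0.35 on the same scale. The difference between the lines in the DBP change was 0.54 for *RAD17* (interval 0.04 to 1.05). Its unadjusted p was 0.03799 and its adjusted p 0.6331 in limma. That difference was 0.50 for *ATR* A_33_P3362498 (adjusted p 0.6538) and -0.04 for the other *ATR* probe. The widest group of the array set was again H1299 DBN, with a median SD of 0.616 over the member probes and 0.492 over all features.

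*RAD1* was read by A_23_P144697 (chr5:34908893-34908952) and A_33_P3272828 (chr5:34914800-34914859). Group means ran from 3.80 to 4.01 for the first and from 3.49 to 3.72 for the second, whose lowest and highest means were both in CTL, of H1299*shRAD9* and H1299. *RAD17*, read across a junction between chr5:68695972 and chr5:68706354, ran from 1.28 in H1299 DBP to 1.66 in BN and DBP of H1299*shRAD9*. Neither gene differed beyond its spread under the adjusted test.

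For *ATR*, A_23_P136058 (chr3:142168364-142168423) ran from 4.83 in H1299 DBN to 5.14 in H1299*shRAD9* DBP, and A_33_P3362498 (chr3:142185167-142185226) from 1.53 to 1.88. *ATRIP* was read by A_23_P501770 (chr3:48505498-48506255, across a junction), from 1.34 to 1.80, and by A_24_P371425 (chr3:48502140-48505144, across a junction), from 1.71 to 2.06. *CHEK1* (chr11:125525158-125525217) ran from 4.35 in H1299 DBN to 4.77 in H1299*shRAD9* DBP. Probes of the same gene followed each other over the 25 arrays of a line with Pearson's r of 0.77 and 0.89 for *ATRIP*, 0.48 and 0.63 for *ATR* and 0.43 and 0.63 for *RAD1* (H1299*shRAD9* first).

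Counted together, 10, 10, 8 and 10 of the 11 member probes were above their controls in DBP, BP, DBN and BN of H1299*shRAD9*. Of all features 58.6%, 54.7%, 48.4% and 50.8% were. The median change of the members was 0.18, 0.13, 0.11 and 0.15, and that of all features 0.03, 0.02, -0.01 and 0.00. In H1299, 4, 6, 0 and 1 of the 11 were above their controls, with medians of -0.04, 0.04, -0.14 and -0.04 against 0.02, -0.06, -0.10 and -0.05 over all features. The steps are small beside the spread of a group, and these counts carry no test. No member was called in H1299, where 0.0348%, 0%, 0.00995% and 0% of features were called, and 0 members had an unadjusted p under 0.05 in any of the 4 comparisons, against 5.57%, 5.67%, 3.28% and 3.43% of all features.

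**Figure D4:**
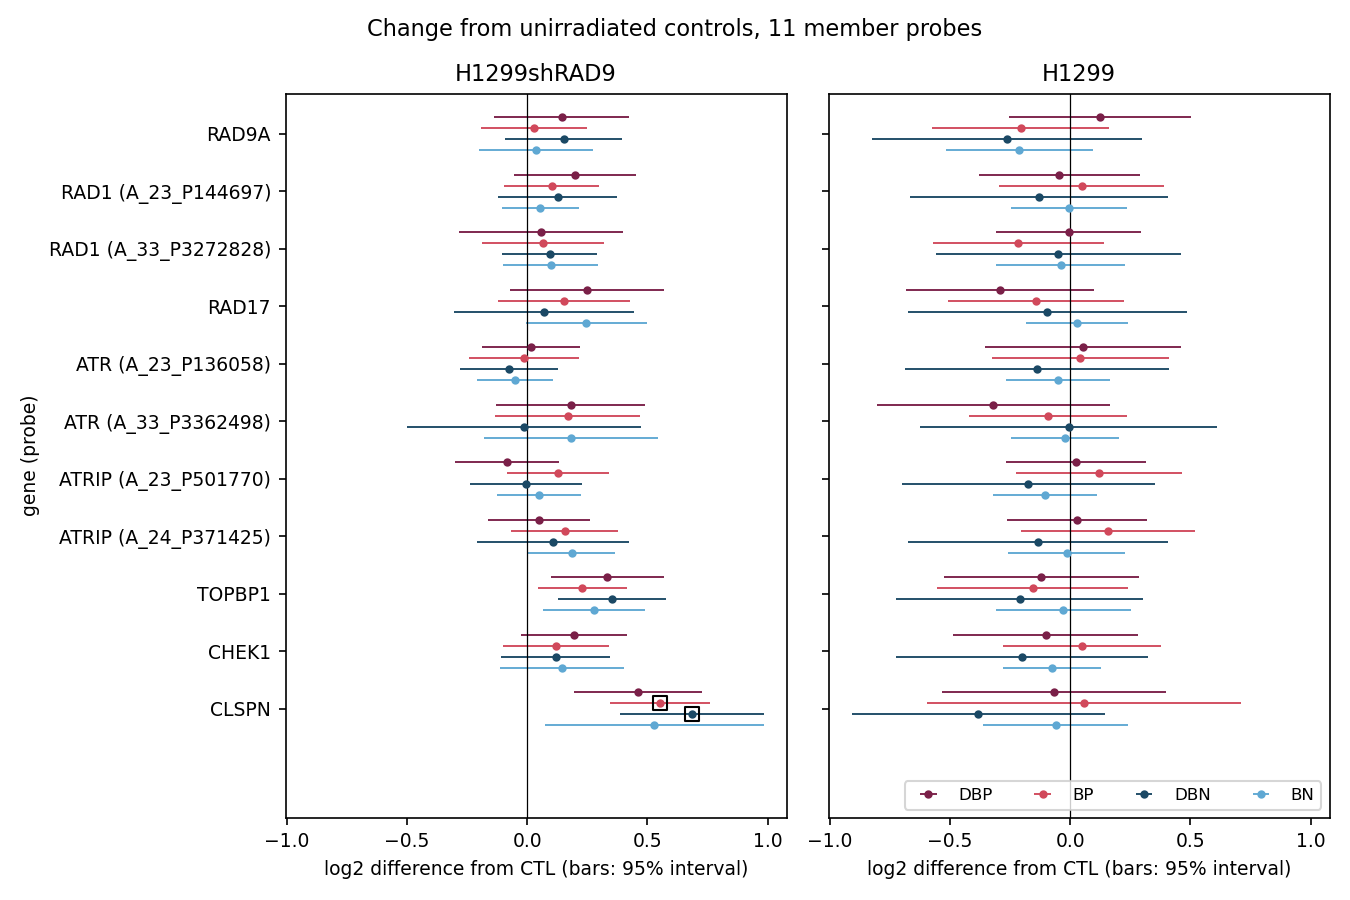
Log2 difference from CTL (x axis, points with 95% intervals from limma with the replicate block) of the 11 tested member probes (y axis) in each irradiated group, for each cell line, with squares around called differences. In H1299*shRAD9* the *CLSPN* and *TOPBP1* points of all 4 groups lie above 0, and in H1299 the intervals of both genes cross 0.

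No member was called between the dishes that did and did not give a bystander response. DBP minus DBN for *CLSPN* was -0.23 in H1299*shRAD9* (interval -0.56 to 0.10) and 0.32 in H1299 (-0.53 to 1.17). BP minus BN was 0.02 (-0.38 to 0.42) and 0.12 (-0.64 to 0.87). In each of the 4 comparisons 0% of all features and 0 of 11 member probes were called in limma, and 0 members had an unadjusted p under 0.05, against 0.363% to 1.52% of all features.

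Between the cell lines 0 of 11 member probes were called in any exposure group or in the mean over them, although many other features were: 13% (CTL), 6.01% (DBP), 7.25% (BP), 2.54% (DBN), 8.26% (BN) and 21.8% (the mean). At an unadjusted p under 0.05 there were 3 members in CTL (*RAD9A*, *TOPBP1* and *RAD1* A_33_P3272828, all lower in H1299*shRAD9*), 0 in DBP, 0 in BP, 1 in DBN (*CLSPN*), 0 in BN and 1 in the mean (*CHEK1*, value 0.20, adjusted p 0.122). The shares of all features at that p were 33.9%, 20.6%, 22.4%, 17.2%, 25.4% and 40.6%. With 11 member probes the counts of members are small, and they carry no test. The mean uses the arrays of the single exposure groups and is not independent of them. The median difference of the members was -0.19 in CTL against 0.06 over all features, and 0.07 against 0.13 in the mean.

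The other genes of the pathway were taken from a list of clamp loader subunits, RPA, fork protection factors, cell cycle targets, kinase assembly factors and the ATM branch, of which 32 probes of 23 genes could be tested. *TIPIN*, a fork protection factor that binds RPA and helps Claspin reach the fork, differed between the lines in 4 of the 5 exposure groups. In CTL its probe (chr15:66629213-66629272) read 6.0, 6.22, 6.44, 6.46 and 6.31 in H1299*shRAD9* and 5.55, 5.26, 5.65, 5.51 and 5.83 in H1299. All knockdown arrays were above all parental ones. How many of all features were separated in this way was not counted, and 13% of them were called in this comparison. The difference was 0.73 in CTL (adjusted p 0.006751), 0.83 in DBP, 0.78 in BP and 0.73 in BN, each called, and 0.94 in DBN (adjusted p 0.1044, not called). Averaged over exposures it was 0.80 (SE 0.13), with an adjusted p of 5.524e-06 in limma, and the 25 arrays ran from 5.76 to 6.61 in H1299*shRAD9* and from 4.38 to 5.89 in H1299. With 1 replicate number left out at a time the difference in CTL ran from 0.67 to 0.80 and kept its call, whereas the call was lost in DBP without replicate 2, 3, 4 or 5 (0.73 to 0.89), in BP without replicate 1, 3 or 5 (0.62 to 0.88) and in BN without replicate 3 (0.74). It was also lost in DBP under quantile normalization (0.70), normexp (adjusted p 0.168) and the authors' processed values (0.73), in BP under 75th percentile scaling (0.66), quantile normalization (0.58) and the authors' processed values (0.66), and in BN under normexp (1.55, adjusted p 0.251). With the 5′ to 3′ index as a covariate the CTL difference was 0.83 and called.

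Across the list 2 probes were called higher and 0 lower in CTL, 1 and 0 in DBP, 2 and 0 in BP, 1 and 0 in DBN, 1 and 0 in BN, and 5 and 1 in the mean. Over all features the shares called higher were 6.89%, 2.19%, 4.55%, 1.37%, 4.98% and 13.8% in the same order, and the shares called lower 6.08%, 3.82%, 2.7%, 1.17%, 3.29% and 8.03%. *TTI2*, a cofactor for folding of ATR-family kinases, was higher in H1299*shRAD9* in CTL (0.72), BP (1.04) and the mean (0.76). In the mean *CDC25A*, the phosphatase that CHEK1 marks for destruction, was 0.54 higher, *PPM1D* (A_32_P150030), a phosphatase of the pathway, was 0.36 higher, and *ATM* was 0.35 lower by 1 probe (A_23_P35916, value -0.35). The other *ATM* probes were not called and did not share a sign, at 0.23 (A_33_P3218410) and -0.12 (A_33_P3589722). *DBF4*, the activating subunit of the CDC7 kinase, was 0.66 higher in the mean and 1.22 higher in DBN by probe A_33_P3413523 (chr7:87516653-87516712). *TTI2* lost its call in CTL with the index as a covariate (0.55) and with all groups in one fit (0.72), and in BP without replicate 1, 3 or 5 (0.82 to 1.24), and *DBF4* in DBN without replicate 3 or 4 (1.12 and 1.18). In the mean, the calls of *DBF4* (without replicate 1 or 3), *CDC25A* (without 3), *PPM1D* and *ATM* (without 3, 4 or 5) were lost in the same way, with values of 0.58 to 0.82, 0.39 to 0.62, 0.30 to 0.50 and -0.43 to -0.27. Over all alternative runs of the mean, *DBF4* lost its call in 5 of 16 and *ATM* in 4 of 16.

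**Figure D5:**
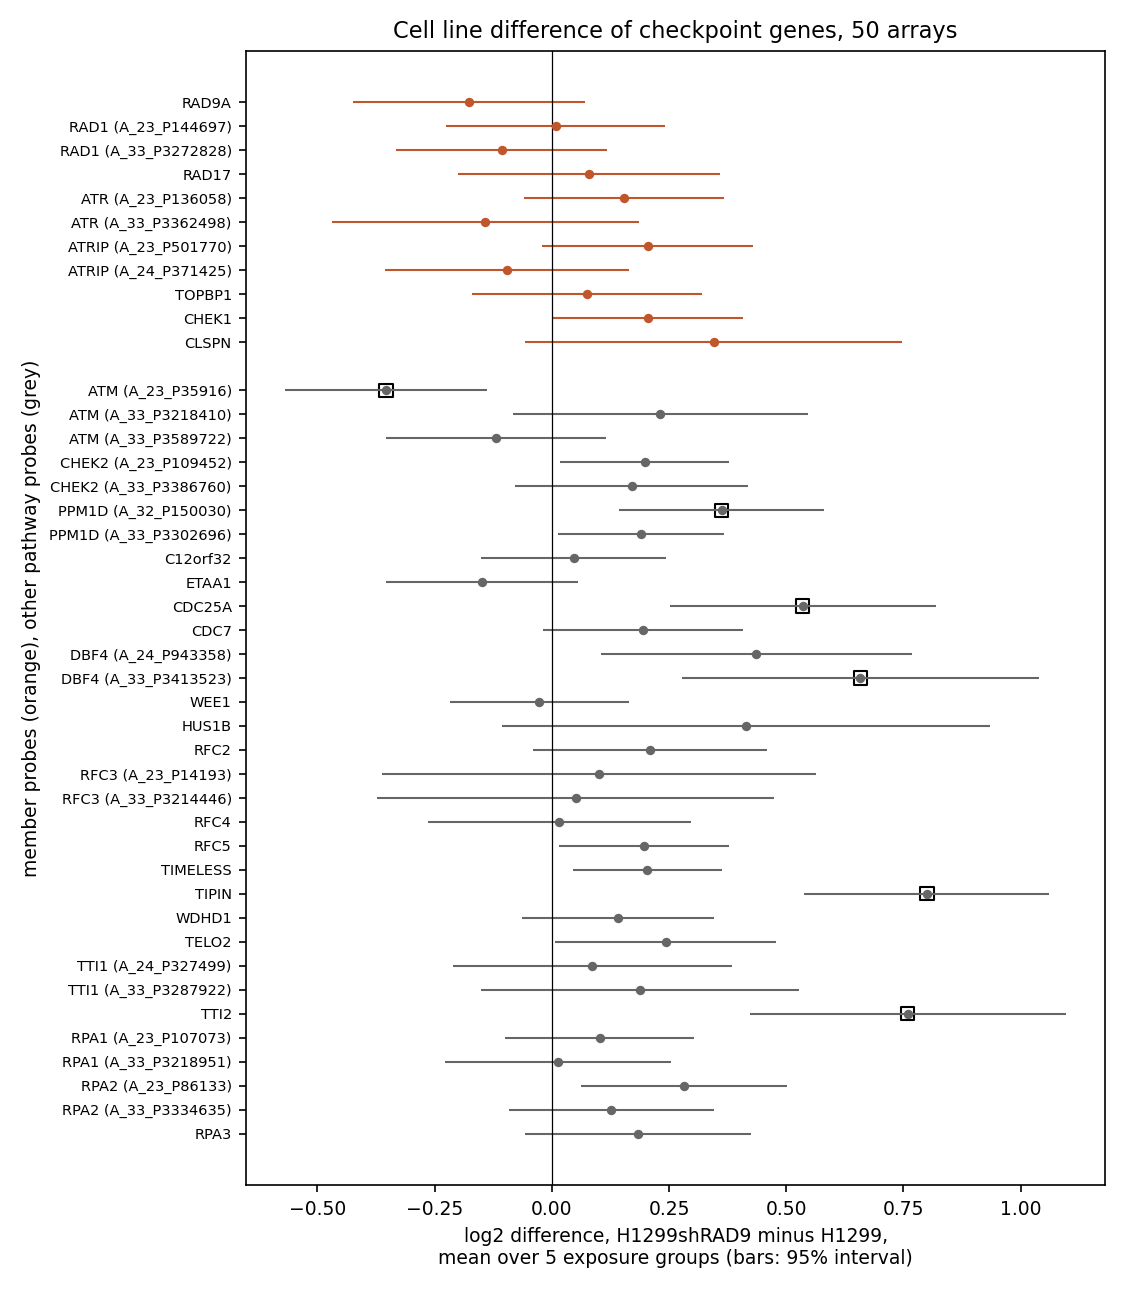
Log2 difference between H1299*shRAD9* and H1299, averaged over the 5 exposure groups (x axis, points with 95% intervals from limma on 50 arrays), for the member probes in orange and the other tested pathway probes in grey (y axis), with squares around called differences. *TIPIN* (0.80) and *TTI2* (0.76) lie to the right with *DBF4* A_33_P3413523 (0.66), and the intervals of *RAD9A* and *CLSPN* include 0.

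With irradiation, the list gave calls in H1299*shRAD9* for *WEE1*, *DBF4* and *RPA1*. In DBP 2 of the 32 probes were called lower (0.557% of all features were), in BP 1 higher (1.49%) and in DBN 3 lower (0.846%). *WEE1* encodes the kinase that inhibits CDK1, and its probe A_33_P3290567 (chr11:9611073-9611132) read 3.0, 2.94, 2.95, 3.08 and 3.06 in CTL. It read 2.29, 2.48, 2.48, 2.51 and 2.75 in DBP and 2.23, 2.33, 2.72, 2.60 and 2.68 in DBN. All directly hit arrays lay below all controls, as did 0.601% of features in DBP and 0.848% in DBN. The changes of -0.50 and -0.49 had adjusted p of 0.06936 and 0.07339 in limma (0.157 and 0.12 without the replicate block). The calls were lost without replicate 2, 3, 4 or 5 in DBP (-0.55 to -0.45) and without replicate 1, 2, 3 or 4 in DBN (-0.56 to -0.43). With the 5′ to 3′ index as a covariate the change was -0.40 in DBP (adjusted p 0.883) and -1.07 in DBN (adjusted p 0.303). Over all alternative runs the call was lost in 8 of 18 in DBP and in 8 of 18 in DBN. The bystander changes were -0.06 in BP and -0.04 in BN, with the BP arrays between 2.91 and 3.0.

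*WEE1* arrays of H1299 read 3.61, 3.20, 3.17, 3.08 and 3.04 in CTL, 2.70, 2.41, 2.55, 2.57 and 2.57 in DBP and 2.0, 1.91, 2.30, 2.59 and 2.66 in DBN. Here too every directly hit array was below every control. The changes of -0.66 and -0.93 were not called (adjusted p 0.3351 and 0.7376), and the difference between the lines was 0.16 (adjusted p 0.7575) in DBP and 0.43 (adjusted p 0.9304) in DBN. Of all features 0.694% and 0.722% had all arrays of these groups below all H1299 controls.

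The probes of *DBF4* in H1299*shRAD9* went opposite ways. A_33_P3413523 was 0.61 higher in BP (adjusted p 0.04024), with values of 0.21 in DBP and 0.35 in DBN. A_24_P943358 (chr7:87538554-87538613) was lower in both directly hit groups (DBP -0.59 and DBN -0.69, adjusted p 0.08909 and 0.05331). The level of this gene thus has no single direction. *RPA1* A_33_P3218951 fell by 0.47 in DBN (adjusted p 0.05992), and its other probe A_23_P107073 was not called. With 1 replicate number left out at a time these calls were lost without replicates 2, 4 or 5 (*DBF4* in BP, 0.52 to 0.66), 2, 3, 4 or 5 (*DBF4* in DBP, -0.69 to -0.50) and 1, 2, 3 or 4 (*DBF4* in DBN, -0.75 to -0.58, and *RPA1*, -0.49 to -0.44), and without the replicate block all 4 were lost (adjusted p 0.138 to 0.464). With the index as a covariate A_24_P943358 was at -0.35 in DBP and -1.49 in DBN and *RPA1* at -0.75, none called (adjusted p 0.883, 0.25 and 0.382 in limma), and A_33_P3413523 in BP was at 0.42 (adjusted p 0.4). Over all alternative runs A_24_P943358 lost its call in 10 of 17 in DBP and in 8 of 17 in DBN. A_33_P3413523 lost it in 9 of 18 in BP, and *RPA1* in 9 of 17 in DBN. In the H1299 comparisons, the 4 differences between lines in the change and the 4 dish comparisons, 0 of the 32 probes were called.

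As a description over all 50 arrays, the features most like *RAD9A* were *CHD3*, *RPS6KB2* and *GSS* (Pearson's r of 0.85 each) and *PPARD* and *BRMS1* (0.83 each). *RPS6KB2* (chr11:67202755-67202814) and *BRMS1* (chr11:66104992-66105051) lie on the chromosome of *RAD9A*. *CHD3* lies on chr17, *GSS* on chr20 and *PPARD* on chr6. The other members had r from -0.11 to 0.37 with it. Most like *CLSPN* were *PARP1* (0.93, probe A_33_P3290338), *AKIRIN1* (0.92 by each of its probes), *BRCC3* (0.91) and *RAB3B* (0.90). *PARP1* (chr1:226589945-226590004), *AKIRIN1* (chr1:39469031-39469090 and chr1:39469807-39469866) and *RAB3B* (chr1:52385308-52385367) lie on the chromosome of *CLSPN*, and *BRCC3* lies on chrX. The r of *CLSPN* with *TOPBP1* was 0.68, with the *ATRIP* probes 0.57 and 0.47, and with *CHEK1* 0.36. The shares of all features on chr1 and chr11 were not counted, so the shared chromosomes have no baseline here. The arrays lay on 13 slides and differed in depth of signal, which all features of an array share, and these values carry no test.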

How the data were processed

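The deposited Agilent 4x44K v2 files hold Cy3 intensity values per spot, which the authors obtained with Feature Extraction 11.5.1.1 (background-subtracted processed signal). The deposited series table holds log2 values of features that the authors kept, normalized and centred per array. It lists 9476 features on the array and 4 of the 14 member probes, each column matches its own array with r of at least 0.9999, its column medians run from 8.857 to 9.301, and its centring against the scanner values differs by array, from -1.338 to 1.077. It served only as an alternative. The authors' methods describe background correction, median normalization and paired tests in BRB-ArrayTools.

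For this work the processed intensity was set on the log2 scale, outlier-flagged spots were left out, spots of a probe were averaged, and the array median over 34127 probes was subtracted. Features not well above background on over 25% of arrays were removed, which left 20100 features with 733 missing values, which limma omitted. The further 1.3-fold variation criterion (12206 features) was an alternative, because 3 of the member probes meet it. Fits used limma 3.58.1 and statmod 1.5.0 in R 4.3.3 (lmFit, eBayes, Benjamini-Hochberg over all features). Changes from CTL and differences between lines in them carried the replicate number as a block. The block assumes that equal numbers mark the paired sets that the methods name, which the labels do not state. Some same-numbered arrays of H1299*shRAD9* also shared a slide, so pairing and slide cannot be fully told apart there. Cell lines and dishes were compared without the block, and the mean over exposures used duplicateCorrelation (correlation 0.2753). Deviations of same-numbered arrays from their group means correlated in 5 of 5 pairs over 0.1 in H1299*shRAD9* (mean 0.47 to 0.526), and in 3 of 5 pairs in BP and DBN of H1299. *RAD9A* was also tested by exact permutation over 252 splits. Code was tested on simulated data.

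All probes of the 10 members are reported. Other pathway genes are named where called, and for likeness the 5 features with the highest r are named. The members and lists were chosen with earlier results of these data known. Alternatives covered scaling, background correction, background criterion, filter, sample set, block, the series table and each replicate left out. The slide as a fixed block and the 5′ to 3′ index as a covariate were added after seeing the data. The RefSeq tables held no promoter window for *HUS1*.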

Additional observations from a re-analysis of the deposited data

Results flagged for a closer look

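Among the 110 groups of 5 arrays (11 member probes in 10 groups), 10 held an array whose gap to its nearest neighbour was more than 0.71 of the group's range. Chance flags about 1 in 20 groups. H1299 DBN replicate 1, the array with the largest share of spots well above background, read 2.66 for *RAD1* A_23_P144697 (others 3.93 to 4.39), 0.26 for *ATRIP* A_23_P501770 (others 1.39 to 1.77) and 3.58 for *CHEK1* (others 4.43 to 4.65). H1299 DBP replicate 1 read 3.13 for *RAD1* A_23_P144697 (others 3.97 to 4.16). Among H1299 controls, replicate 2 read 4.64 for *ATR* A_23_P136058 (others 4.98 to 5.08) and replicate 5 read 4.42 for *TOPBP1* (others 4.00 to 4.09).

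In H1299*shRAD9*, *RAD1* A_23_P144697 read 3.62 in DBP replicate 1 (others 4.04 to 4.16) and 3.75 in BP replicate 3 (others 3.93 to 3.97). *RAD9A* read 4.26 in DBN replicate 1 (others 3.59 to 3.77). *CLSPN* read 1.94 in DBN replicate 4 (others 1.21 to 1.40), and without that replicate number the change from CTL was not called.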

How the results depend on the processing

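In 17 of the 22 comparisons the count of called member probes was the same under every alternative run. In BP minus CTL of H1299*shRAD9* it fell from 1 to 0 with the positive-and-significant mark, all groups in one fit, no replicate block, the slide as a fixed block and the 5′ to 3′ index as a covariate, and in DBN minus CTL under the same settings except all groups in one fit, which gave 2 (*CLSPN* and *TOPBP1*). With 1 replicate left out at a time the count ran from 0 to 1 in BP and DBN, and from 0 to 2 in DBP. It was 2 between the unirradiated lines under normexp (*RAD9A* and *TOPBP1*) and 1 between the lines in DBN with the replicate block (*CLSPN*). Over all alternatives *CLSPN* in BP ran from 0.42 to 0.70 (adjusted p 0.0392 to 0.582) and in DBN from 0.58 to 1.58 (0.0246 to 0.294), above 0 in each. The cause of these differences was not tested.

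The *RAD9A* difference in DBN (0.06) reversed to -0.086 under 75th percentile scaling, -0.094 under quantile normalization and -0.11 under normexp, and ran from -0.27 to 0.25 with 1 replicate left out, below 0 without replicate 1. In BN (-0.11) it reversed to 0.48 under normexp. In DBP it passed the exact permutation test at 0.05 under 75th percentile scaling (-0.40) and quantile normalization (-0.43, exact permutation p = 0.0238 in both). In CTL it ran from -0.41 to -0.33 with 1 replicate left out (exact permutation p = 0.0571 without replicate 2, 3 or 5). *TOPBP1* in DBN of H1299*shRAD9* reversed to -0.18 with the index as a covariate. *TIPIN* stayed called in CTL and in the mean over exposures under every alternative run. Scaling moved the median of all features by up to -0.14 (H1299*shRAD9* minus H1299 in DBN, 75th percentile) and normexp by up to -0.60 (BN minus CTL of H1299).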
